A study of Mus musculus with 4 samples.

Results

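The genes described here are 9 mouse genes of amyloid precursor protein (APP) processing and of the brain's lipid carriers: App and its paralogs Aplp1 and Aplp2, the proteases Adam10, Bace1, Psen2 and Ncstn, and the secreted proteins Apoe and Clu. They were chosen by name, and every probe set whose only platform symbol was one of these genes, or its older alias, was taken and read on all 4 arrays. The 9 genes are read among 12040 genes tested in the whole series. They carried 28 probe sets, of which 23 passed the filter on dim probe sets and were tested.

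The study compared primary cultures of C57BL6 mouse cerebral cortex on Affymetrix arrays, with 2 neuron cultures and 2 astrocyte cultures, 1 array each. Neurons were taken at embryonic day 16 and grown for 7 days with 1% fetal calf serum and glucose at 19.4 mM. Astrocytes were taken from newborns and grown with 10% serum and glucose at 33 mM, for 20 days by the series description, while the protocol text states a shorter time shared by all assays. Cell type, donor age, medium and time in culture cannot be told apart here. The titles call the arrays of a group biological replicates without tying them to animals. The p-values therefore set a difference against the spread between these arrays, with a variance partly shared over all probe sets. In such bulk cultures, fewer cells of a type and less RNA per cell cannot be told apart either.

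APP is a membrane protein that is cut in competing ways. The alpha-secretase ADAM10 cuts inside the amyloid-beta stretch and releases a soluble fragment, whereas the beta-secretase BACE1 cuts at its start and leaves a stub. The gamma-secretase complex, built on a catalytic presenilin and on nicastrin, then cuts the remaining stub within the membrane and, after BACE1, releases amyloid-beta. The paralogs APLP1 and APLP2 are cut by the same kinds of protease but lack the amyloid-beta stretch. Apolipoprotein E carries lipid between brain cells and is known as an astrocyte product, and clusterin, also called apolipoprotein J, is a secreted chaperone of glia; both bind amyloid-beta.

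The starts of the precursor genes and of Apoe are shown because the 3 paralogs of the family divided between the cultures in different ways and Apoe was well above background in both. Each sequence is the 250 bases before the RefSeq start of the gene on build GRCm38.p6, read 5′ to 3′ on the gene's own strand, which is the minus strand for all 4. Capitals mark GC boxes, the letters GGGCGG or, on the other strand, CCGCCC. The Aplp1 window lies at chr7:30445583-30445832, App at chr16:85173708-85173957, Aplp2 at chr9:31211849-31212098, and the Apoe window, the most upstream of 3 annotated, at chr7:19699189-19699438.
Aplp1: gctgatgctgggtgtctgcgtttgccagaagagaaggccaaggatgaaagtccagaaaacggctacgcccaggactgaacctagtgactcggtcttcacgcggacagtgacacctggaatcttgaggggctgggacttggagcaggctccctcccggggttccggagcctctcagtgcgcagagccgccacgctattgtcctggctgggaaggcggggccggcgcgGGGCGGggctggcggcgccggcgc
App: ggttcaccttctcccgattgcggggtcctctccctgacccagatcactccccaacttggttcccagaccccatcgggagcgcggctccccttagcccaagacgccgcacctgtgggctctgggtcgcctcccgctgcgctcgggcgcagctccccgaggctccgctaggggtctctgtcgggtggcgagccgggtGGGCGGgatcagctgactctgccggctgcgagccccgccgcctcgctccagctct
Aplp2: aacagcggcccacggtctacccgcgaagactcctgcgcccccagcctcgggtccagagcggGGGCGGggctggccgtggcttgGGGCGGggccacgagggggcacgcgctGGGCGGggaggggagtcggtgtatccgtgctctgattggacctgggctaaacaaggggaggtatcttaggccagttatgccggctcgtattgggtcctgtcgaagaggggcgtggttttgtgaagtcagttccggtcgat
Apoe: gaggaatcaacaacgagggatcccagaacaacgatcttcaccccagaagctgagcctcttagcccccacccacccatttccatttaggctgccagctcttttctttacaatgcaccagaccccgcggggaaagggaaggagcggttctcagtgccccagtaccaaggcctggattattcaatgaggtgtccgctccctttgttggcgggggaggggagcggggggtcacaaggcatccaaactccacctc
The windows of App and Aplp1 each held 1 GC box, that of Aplp2 held 3, and that of Apoe held none. Of the 32851 windows of this length in the promoter table, 32.7% held a GC box. The G and C share was 66.0% in Aplp1, 70.8% in App, 66.4% in Aplp2 and 57.2% in Apoe, against a median of 52.4% over all windows. The CCAAT box (CCAAT or ATTGG), present in 33.8% of all windows, was found in Aplp2, with 2 matches, and in neither App, Aplp1 nor the Apoe window shown. No GC box overlapped another motif searched. App and Aplp1 thus had the same motif counts in these windows, while Aplp1 differed between the cultures and App did not pass the test. A match is a description of letters and says nothing of a factor's binding. Windows were matched for 7 of the 9 genes; Clu and Bace1 are the other two.

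Among the precursor genes, the widely expressed App had nearly the same signal in both cultures, Aplp1 was 20.9-fold higher in neurons, and Aplp2 was 1.46-fold higher in astrocytes. Signals are MAS5 intensities in arbitrary units, which compare 1 probe set between arrays but not different probe sets with each other. Differences are log2 fold changes of neurons minus astrocytes after adding an offset of 12.5, and every adjusted p of a gene or probe set is from the limma fit over 25019 probe sets, called below 0.05. The offset damps noise and understates the folds of dim genes.

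Aplp1, known as a neuronal protein gene, had signals of 2000 and 1746 in neurons and 87 and 69 in astrocytes by probe set 1435857_s_at. The astrocyte arrays were far below both neuron arrays and still above background. The group means were 1873 ± 180 in neurons and 78.0 ± 12.7 in astrocytes (SD, n = 2 each), a log2 fold change of 4.38 with a standard error of 0.15 (limma adjusted p = 2.1e-07). Only 2.0% of all genes tested had a larger absolute difference. The second Aplp1 probe set, 1416134_at, had 220 and 169 in neurons against 5 and 18 in astrocytes, where 1 of the 2 astrocyte arrays was above background. Its log2 fold change was 3.15 with a standard error of 0.30 (limma adjusted p = 3.2e-05). It ran the same way with a smaller fold, and the difference of -1.23 between the probe sets did not pass the threshold (limma adjusted p = 0.0682). The gene's value was 3.77 when its probe sets were averaged.

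App itself had signals of 4900 and 5296 in neurons and 4845 and 4875 in astrocytes by probe set 1427442_a_at. Both neuron arrays lay just above both astrocyte arrays. The log2 fold change was 0.07, with a 95% interval from -0.16 to 0.29 (limma adjusted p = 0.584). The direction turned under quantile normalization of the 4 arrays (-0.04). The second tested probe set, 1420621_a_at, had 2205 and 2234 in neurons and 2321 and 2154 in astrocytes. Its groups overlapped, with a log2 fold change of -0.01 (limma adjusted p = 0.941). The other two App probe sets, 1438373_at and 1438374_x_at, had signals of 1 to 7 on all arrays, under background, and were not tested. Of all genes tested, 93.9% had a larger absolute difference than App.

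Aplp2, the broadly expressed paralog, had signals of 1040 and 716 in neurons and 1190 and 1347 in astrocytes by probe set 1423739_x_at. The neuron arrays were both lower, but the neuron arrays differed from each other by more than the nearest arrays of the groups did. The group means were 878 ± 229 in neurons and 1268 ± 111 in astrocytes (SD, n = 2 each), a log2 fold change of -0.55 with a standard error of 0.18 (limma adjusted p = 0.0273). The call ended without neuron array 2 (-0.28, adjusted p = 0.194), without astrocyte array 1 (-0.63, adjusted p = 0.166), without astrocyte array 2 (-0.46, adjusted p = 0.275), without the filter on dim probe sets, without the mean-variance trend, and with the probe sets averaged. Of its 5 probe sets, 3 passed the threshold, all higher in astrocytes, and 2 did not. Probe set 1421887_a_at had 628 and 466 in neurons against 901 and 847 in astrocytes (-0.68, limma adjusted p = 0.00597). Probe set 1421889_a_at had 146 and 130 in neurons against 191 and 196 in astrocytes (-0.45, limma adjusted p = 0.0388). In both the groups did not overlap, whereas they overlapped in 1421888_x_at (-0.17) and in 1432344_a_at (-0.04), which had 709 and 539 in neurons against 533 and 761 in astrocytes.

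**Figure D1:**
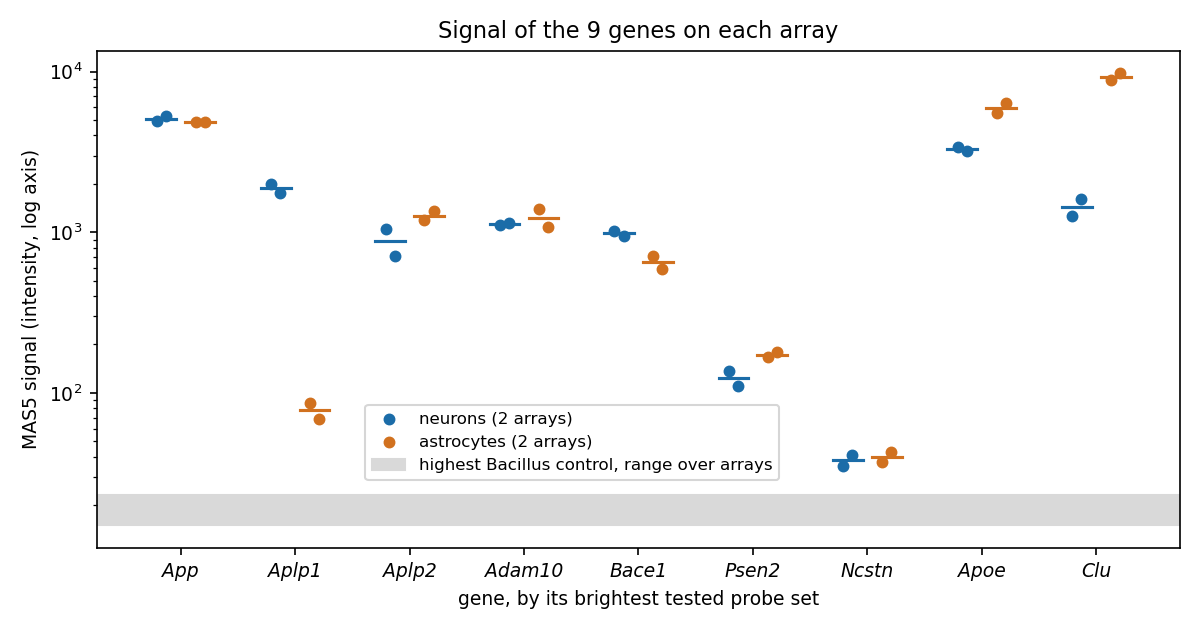
MAS5 signal (log axis) of each of the 9 genes by its brightest tested probe set, with 1 point per array, neurons in blue to the left of astrocytes in orange, and a line at each group mean. The grey band spans the background of the 4 arrays, 15 to 23. Heights compare arrays within a gene and not genes with each other; the Aplp1 and Clu points separate widely and in opposite directions, while the App, Adam10 and Ncstn points lie close together.

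Among the proteases, Bace1 was 1.52-fold higher in neurons, and Adam10, Psen2 and Ncstn did not pass the threshold by the probe set that read the gene. The largest of these differences was smaller than the median absolute log2 difference of all genes, which was 0.69.

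Bace1, the beta-secretase, had signals of 1018 and 953 in neurons and 711 and 586 in astrocytes by probe set 1455826_a_at. Both neuron arrays were above both astrocyte arrays. The means were 986 ± 46.0 in neurons and 648 ± 88.4 in astrocytes (SD, n = 2 each), a log2 fold change of 0.60 with a standard error of 0.14 (limma adjusted p = 0.00504). The call ended without neuron array 1 (0.55, adjusted p = 0.0912), without neuron array 2 (0.65, adjusted p = 0.0679) and without astrocyte array 2 (0.46, adjusted p = 0.0643). A second probe set, 1421824_at, had 236 and 217 in neurons against 113 and 123 in astrocytes and gave 0.87 (limma adjusted p = 0.00171). The groups did not overlap in either probe set. The remaining probe sets were dimmer: 1450384_at had 68 and 59 in neurons against 42 and 36 in astrocytes (0.56, limma adjusted p = 0.0531), and 1421825_at had 64 and 67 in neurons against 77 and 27 in astrocytes (0.39, limma adjusted p = 0.377). All 4 estimates were positive, and 2 of the 4 passed the threshold.

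Adam10, the main alpha-secretase of neurons, had signals of 1113 and 1142 in neurons and 1385 and 1070 in astrocytes by probe set 1428103_at. The neuron arrays lay between the astrocyte arrays. The log2 fold change was -0.11, with a 95% interval from -0.44 to 0.22 (limma adjusted p = 0.539). Its other tested probe sets lay further from 0. Probe set 1450105_at had 182 and 260 in neurons against 375 and 284 in astrocytes and passed the threshold (-0.56, limma adjusted p = 0.0466), and 1450104_at had 4 and 44 in neurons against 65 and 59 in astrocytes and did not (-1.29, limma adjusted p = 0.0522). In both, the astrocyte arrays were above the neuron arrays. With its probe sets averaged, Adam10 had a log2 fold change of -0.65 (limma adjusted p = 0.0399), and without astrocyte array 1 the brightest probe set gave 0.07. The fourth probe set, 1460083_at, stayed at or under background on all 4 arrays, between 4 and 15, and was not tested.

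Psen2 encodes a presenilin, the catalytic subunit of gamma-secretase. It had signals of 136 and 110 in neurons and 166 and 180 in astrocytes by probe set 1425869_a_at. The groups did not overlap and the astrocyte arrays were higher, with a log2 fold change of -0.46 and a standard error of 0.18, just outside the threshold (limma adjusted p = 0.0529). It passed with an offset 4 times larger (-0.37, adjusted p = 0.0474), a filter at the 75th percentile (-0.46, adjusted p = 0.0440) and quantile normalization (-0.51, adjusted p = 0.0363). It also passed in the fit with probe sets averaged within genes (-0.46, adjusted p = 0.0332), where its value still came from this 1 tested probe set. Its second probe set, 1431542_at, had 32 and 18 in neurons and 26 and 28 in astrocytes and was not tested.

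Ncstn encodes nicastrin, the large glycoprotein subunit of gamma-secretase. By probe set 1418570_at it had signals of 35 and 41 in neurons and 37 and 43 in astrocytes, close to backgrounds of 21 and 23 in neurons and 17 and 15 in astrocytes. The groups overlapped, with a log2 fold change of -0.06 and a wide 95% interval from -0.58 to 0.46 (limma adjusted p = 0.85). Its dimmer probe set, 1444532_at, had 5 and 14 in neurons against 19 and 26 in astrocytes and was not tested, and it was above background only on the astrocyte arrays.

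**Figure D2:**
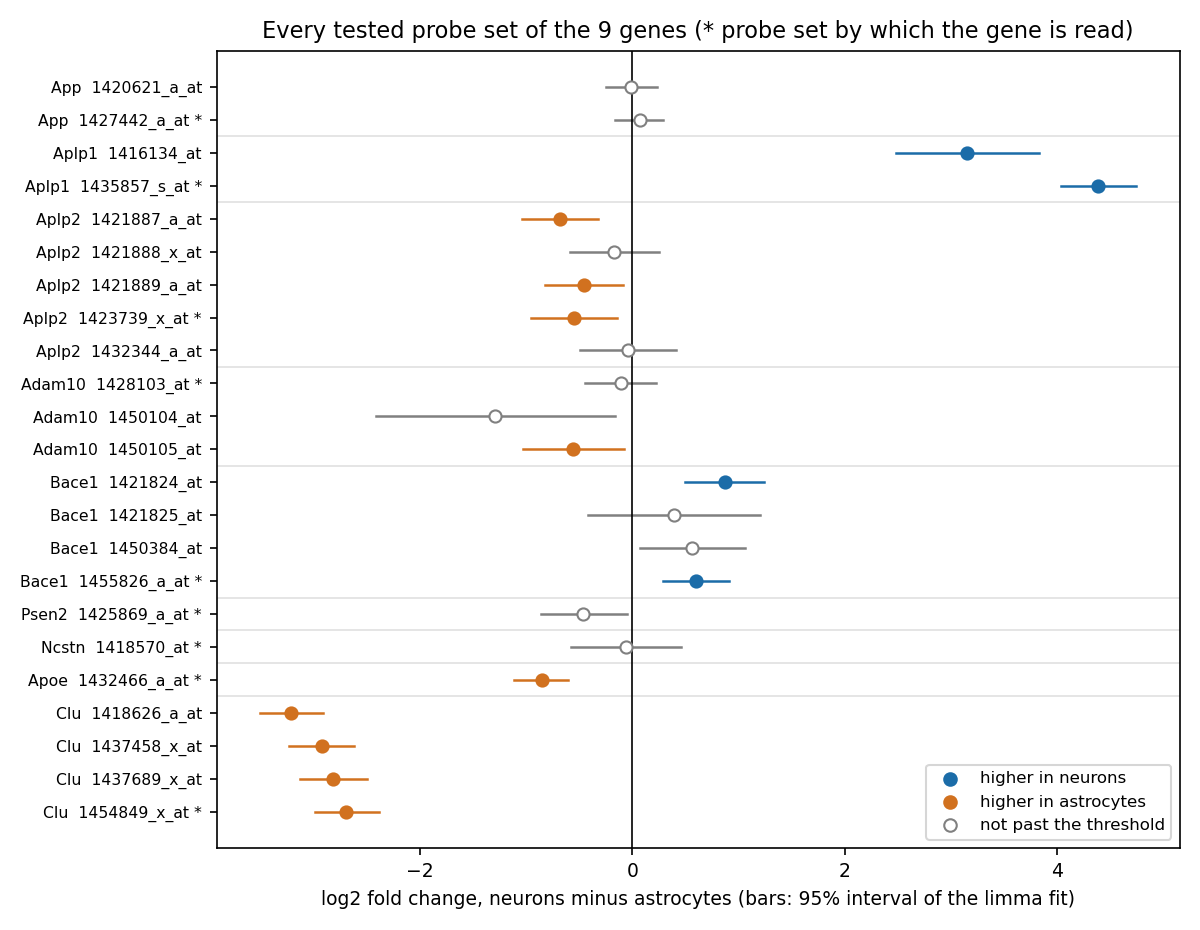
Log2 fold change, neurons minus astrocytes, of the 23 tested probe sets of the 9 genes, with bars for the 95% interval of the limma fit over 2 arrays a group. Filled blue points passed the threshold with the higher signal in neurons, filled orange points with the higher signal in astrocytes, and open points did not pass; the 4 Clu probe sets and the 2 Aplp1 probe sets each stay on 1 side, and the 5 Aplp2 probe sets run from -0.68 to -0.04.

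Both lipid carriers were higher in astrocytes, Clu 6.43-fold and Apoe 1.81-fold, and both were also well above background in the neuron cultures. Clu, the clusterin gene, had signals of 1270 and 1608 in neurons and 8800 and 9742 in astrocytes by probe set 1454849_x_at. The lower astrocyte array was several times the higher neuron array. The means were 1439 ± 239 in neurons and 9271 ± 666 in astrocytes (SD, n = 2 each), a log2 fold change of -2.69 with a standard error of 0.13 (limma adjusted p = 9.17e-07). Of all genes tested, 8.6% had a larger absolute difference.

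All 4 Clu probe sets passed the threshold with the higher signal in astrocytes. Probe set 1418626_a_at had 447 and 522 in neurons against 4266 and 4888 in astrocytes and gave the largest of the 4 differences, -3.21 with a standard error of 0.13 (limma adjusted p = 3.62e-07). The other two gave -2.92 for 1437458_x_at and -2.82 for 1437689_x_at. The _x_ in a name marks probes that can match other sequences too, and the 3 such sets of Clu may share sequence, so they are not independent readings. On all 4 probe sets neuron array 2 read higher than neuron array 1.

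Apoe had signals of 3392 and 3180 in neurons and 5526 and 6388 in astrocytes by its only probe set, 1432466_a_at. Both astrocyte arrays were above both neuron arrays. The means were 3286 ± 150 in neurons and 5957 ± 610 in astrocytes (SD, n = 2 each), a log2 fold change of -0.85 with a standard error of 0.11 and a 95% interval from -1.11 to -0.60 (limma adjusted p = 0.000223). The interval of Apoe did not reach that of Clu, from -2.99 to -2.38, but the difference between these genes was not tested. Of all genes tested, 42.2% had a larger absolute difference than Apoe.

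Cell type markers were read on the same arrays. The summed signal of 14 astrocyte markers was 10539 and 11300 in neuron cultures against 24965 and 25737 in astrocyte cultures, and 12 of the 14 were above background on both neuron arrays. In the neuron cultures Gfap, the astrocyte intermediate filament, read 2 and 109, Aqp4, the astrocyte water channel, read 551 and 701, and Gjb6, named after its value was seen, was at or under background. In astrocyte cultures Gfap read 1744 and 2133, and Aqp4 read 4668 and 3859. Of 13 astrocyte markers tested, 10 were higher in astrocytes, 2 higher in neurons and 1 did not pass. The exceptions, named after their values were seen, were the glutamate transporter gene Slc1a2, at 1832 and 1865 in neurons against 431 and 379 in astrocytes (4.47-fold, limma adjusted p = 1.84e-06), and Aldoc, the aldolase C gene, 1.51-fold higher in neurons (limma adjusted p = 0.00811). The calcium-binding protein gene S100b did not pass (limma adjusted p = 0.266). The part of glial cells in the Apoe and Clu signals of neuron cultures was not tested.

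The sums of 4 other lists were also higher in the astrocyte cultures, and genes that carry or oppose a sum are named here after their values were seen. The 12 microglia and macrophage markers summed to 187 and 240 in neurons against 1050 and 1068 in astrocytes, with Aif1 at 4 and 14 in neurons against 13 and 25 in astrocytes. Ctss, the brightest of them in astrocytes, read 3 and 28 in neurons against 295 and 272 in astrocytes. Of 9 tested in this list, 8 were higher in astrocytes, 0 higher in neurons and 1 did not pass. The 10 fibroblast and meningeal markers summed to 610 and 665 in neurons against 4739 and 4862 in astrocytes, with Col1a1 at 27 and 24 in neurons against 41 and 103 in astrocytes. Islr alone, at 29 and 32 in neurons against 2465 and 2689 in astrocytes, gave most of that astrocyte sum. Of these 10 genes, 7 were higher in astrocytes, 2 did not pass (Dcn and Fbln1), and Lum was higher in neurons (log2 fold change 0.76, limma adjusted p = 0.0259). The 11 endothelial and mural markers summed to 251 and 627 in neurons against 7442 and 8291 in astrocytes, while the endothelial marker Pecam1 was at or under background on all 4 arrays. The smooth muscle genes Acta2, at 87 and 361 in neurons against 4544 and 4791 in astrocytes, and Tagln, at 6 and 95 in neurons against 2691 and 3331 in astrocytes, made up nearly all of it. They were the only called genes among the 4 tested of this list. The 8 ependymal and choroid plexus markers summed to 178 and 167 in neurons against 931 and 1004 in astrocytes, with Ttr, the choroid plexus transthyretin gene, named after its values were seen, at or under background in astrocytes. Foxj1, at 35 and 24 in neurons against 410 and 407 in astrocytes, and Dynlrb2, at 21 and 38 against 376 and 439, gave most of that astrocyte sum. All 3 genes tested in this list were higher in astrocytes. The part of these cells in the astrocyte signals of Apoe, Clu and Aplp2 was not tested. The 11 measured oligodendrocyte lineage markers summed to 5830 and 5233 in neurons against 5557 and 6162 in astrocytes, with Olig2 at 663 and 642 in neurons against 617 and 508 in astrocytes. That near balance hid members on both sides: of 8 tested, 5 were higher in neurons and 2 higher in astrocytes. Pdgfra, the receptor that marks oligodendrocyte precursors, read 1177 and 1302 in neurons against 19 and 21 in astrocytes (38.5-fold, limma adjusted p = 1.37e-07), and Mbp, the myelin basic protein gene, read 420 and 431 in neurons against 16 and 16 in astrocytes. Olig1 read 2899 and 1895 in neurons against 3500 and 3997 in astrocytes, and Cnp, a myelin enzyme gene, read 366 and 500 in neurons against 1344 and 1536 in astrocytes. The part of oligodendrocyte lineage cells in the neuron-culture signals of the 9 genes was not tested.

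Neuron markers were read beside Aplp1. The 14 neuron markers summed to 38625 and 38358 in neurons against 3307 and 3088 in astrocytes, and 7 of the 14 were above background on both astrocyte arrays. Stmn2 and Map2, named after their values were seen, gave most of that astrocyte sum. Stmn2 read 5727 and 6022 in neurons against 1465 and 1485 in astrocytes, and Map2 read 4706 and 4989 in neurons against 1487 and 1269 in astrocytes. Tubb3, the neuronal tubulin gene, read 2875 and 3021 in neurons against 68 and 63 in astrocytes, and Snap25, a synaptic vesicle fusion gene, read 4360 and 3813 in neurons and was under background in astrocytes, with signals of 1 and 2. All 14 neuron markers passed with the higher signal in neurons. The part of neuron content in the Aplp1 difference was not tested.

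By the probe set that read each gene, 5 of the 9 genes passed the threshold (55.6%), 2 higher in neurons and 3 higher in astrocytes, against 62.2% of all 12040 genes (31.0% with neurons higher, 31.1% with astrocytes higher). The share of the 9 genes is close to that of all genes. In 7 of the 9 genes the arrays of the groups did not overlap, against 81.9% of all genes. The median log2 fold change was -0.11 over the 9 genes and 0.02 over all genes. Over their probe sets, 4 were higher in neurons, 9 higher in astrocytes and 10 did not pass, against 29.4% higher in neurons and 27.7% higher in astrocytes of all probe sets tested. Of the 5 probe sets not tested, 3 were at or under background on all arrays and none read above 32. Among 14 comparisons of a second probe set with the one that read the gene, limma called 0 differences after adjustment over all 9326 such pairs, 3 had an unadjusted p under 0.05, and 20.6% of all pairs were called.

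**Figure D3:**
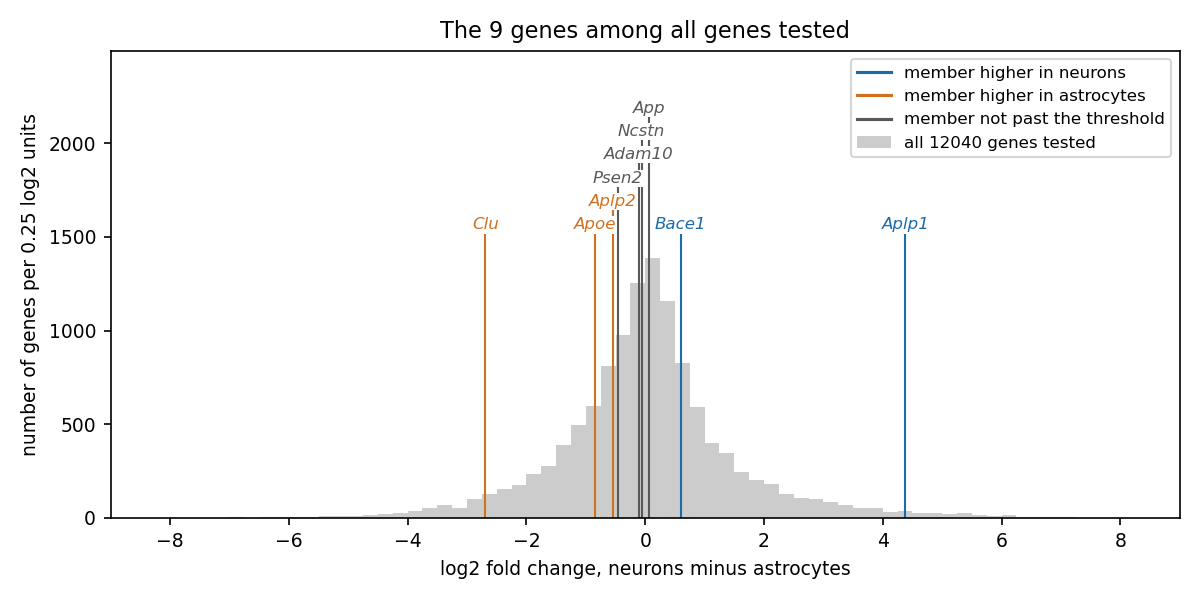
Histogram of the log2 fold change, neurons minus astrocytes, of all 12040 genes tested (bars, number of genes per 0.25 log2 units), with a labelled line for each of the 9 genes. Blue lines passed the threshold higher in neurons, orange lines higher in astrocytes, and grey lines did not pass; Aplp1 at 4.38 and Clu at -2.69 lie far out, and the other 7 genes lie between -0.85 and 0.60.

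The genes with the most similar pattern were found by the Euclidean distance between the 4 centred log2 values, 1 per array, over all genes tested. For Aplp1 they were Dscaml1, an adhesion molecule gene, at a distance of 0.108, Nav3, a neuron navigator gene, at 0.115, and Tmem178 at 0.133. Dscaml1 read 344 and 292 in neurons and 6 and 3 in astrocytes. For Clu they were the unnamed transcript 2210016F16Rik at 0.053, Dbndd2 at 0.068 and Tns3, a tensin gene of focal adhesions, at 0.07. Tns3 read 408 and 508 in neurons and 2800 and 2979 in astrocytes. With 4 arrays, such a distance rests mainly on the difference between the groups.

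The surrounding pathway was read from 8 lists of 144 genes outside the 9, of which 132 had a probe set of their own here and 115 were tested. Of these, 46 were higher in neurons, 42 higher in astrocytes and 27 did not pass, and their median log2 fold change was 0.0, against 0.02 over all genes. The counts of each list are to be read against 31.0% of all genes higher in neurons, 31.1% higher in astrocytes and 62.2% called, and nothing is claimed as particular to a list.

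Of 6 other genes of gamma-secretase and its partners tested, 0 were higher in neurons and 4 higher in astrocytes by limma, with a median of -1.06. The remaining genes, Aph1b and Bsg, are named after their values were seen and had adjusted p of 0.976 and 0.884, so none was higher in neurons at an unadjusted p under 0.05 either. Psenen, whose product PEN-2 is the smallest subunit, read 827 and 877 in neurons and 2203 and 2552 in astrocytes, 2.76-fold higher in astrocytes (limma adjusted p = 1.48e-05). Gsap, the gene of a gamma-secretase activating protein, read 10 and 19 in neurons, under background, against 194 and 231 in astrocytes, at least 9.66-fold higher in astrocytes (limma adjusted p = 1.02e-05). All 3 of its tested probe sets passed in that direction, and their average gave a log2 fold change of -1.92 in place of -3.07. The tested catalytic and glycoprotein subunit genes, Psen2 and Ncstn, showed no such call.

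Among 14 other alpha- and beta-secretases and their regulators, 3 were higher in neurons, 7 higher in astrocytes and 4 did not pass, with a median of -0.32. Bace2, the paralog of Bace1, was 16.9-fold higher in astrocytes, with 28 and 32 in neurons against 714 and 693 in astrocytes, whereas Bace1 was higher in neurons. All 5 tested Bace2 probe sets passed in that direction. Timp3, an inhibitor of metalloproteases that includes ADAM family members among its targets, was 11.9-fold higher in astrocytes, at 181 and 248 in neurons against 2864 and 2463 in astrocytes. Adam19 was 4.85-fold higher in neurons, and Rtn3, a reticulon that binds BACE1, was 2.19-fold higher in neurons, at 6404 and 5919 in neurons against 2897 and 2708 in astrocytes. With an offset 4 times larger, Bace2 had a log2 fold change of -3.24 in place of -4.08, and the list's median was -0.83 without probe sets that match several transcripts.

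The list of APP adaptors, sorting factors and regulators was split: of 28 tested, 13 were higher in neurons, 7 higher in astrocytes and 8 did not pass, with a median of 0.27. Apba1, the gene of the neuronal adaptor Mint1, was 8.34-fold higher in neurons, at 428 and 372 against 33 and 41 in astrocytes. Mapk8ip2, a scaffold of JNK signalling that binds APP, was 6.35-fold higher in neurons, at 691 and 754 against 77 and 137 in astrocytes. Sorl1, a sorting receptor that binds APP in the endosomal route, was 5.33-fold higher in astrocytes, at 425 and 368 in neurons against 2125 and 2204 in astrocytes. Its relative Sorcs1 was 3.31-fold higher in astrocytes. With its probe sets averaged, the log2 fold change of Apba1 was 1.82 in place of 3.06.

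Of 10 amyloid-beta degrading proteases tested, 2 were higher in neurons, 7 higher in astrocytes and 1 did not pass, with a median of -1.71. Without the filter 13 were tested and the median was -0.58. Mme, the gene of neprilysin, was 11.8-fold higher in astrocytes, with 16 and 33 in neurons, where 1 of 2 arrays was above background, against 441 and 386 in astrocytes. With its probe sets averaged the log2 fold change was -2.37 in place of -3.56. Ctsd, the lysosomal cathepsin D gene, was 4.67-fold higher in astrocytes, with 430 and 344 in neurons against 1636 and 2078 in astrocytes. Ide, the insulin-degrading enzyme gene, was 1.49-fold higher in neurons, at 731 and 693 against 470 and 480 in astrocytes, and its averaged probe sets gave 0.14 (limma adjusted p = 0.397). Ece1, an endothelin-converting enzyme gene, was 1.82-fold higher in neurons, at 105 and 54 against 31 and 42 in astrocytes, and the call ended without neuron array 1, without either astrocyte array, without the filter and under quantile normalization.

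**Figure D4:**
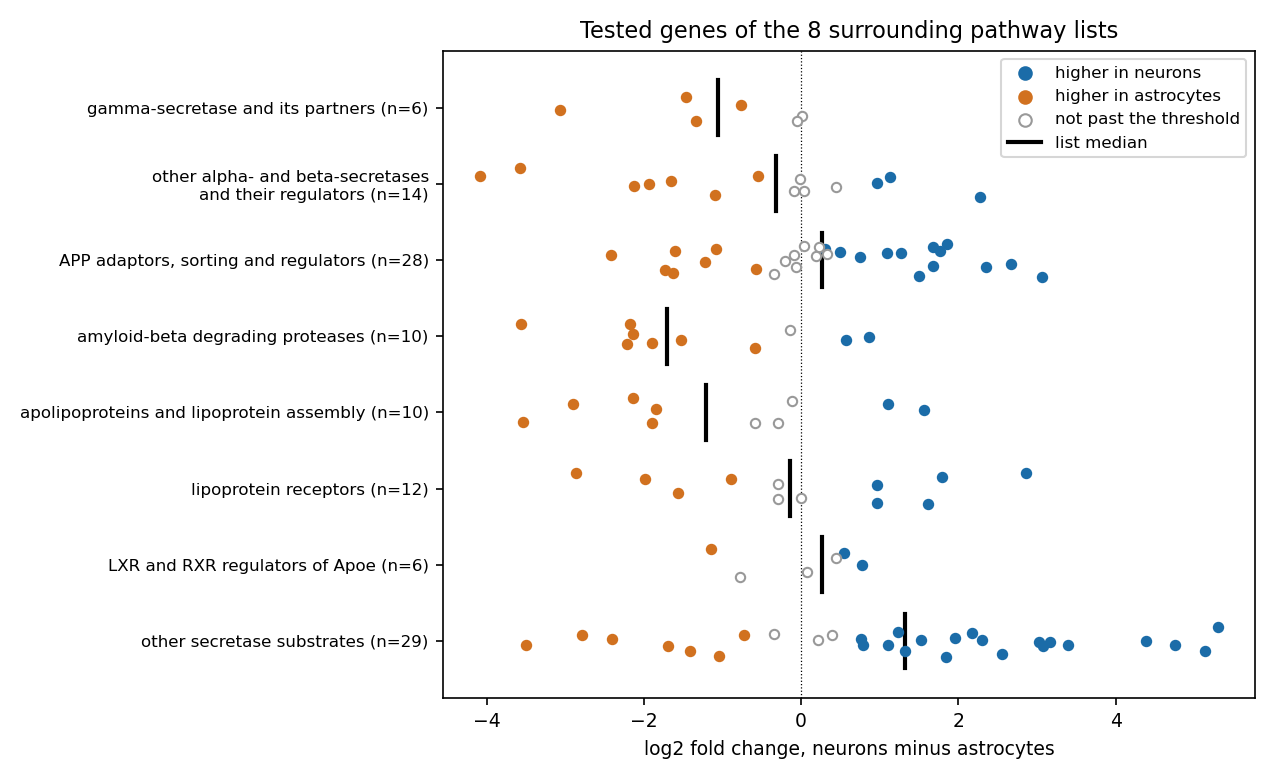
Log2 fold change, neurons minus astrocytes, of each tested gene of the 8 pathway lists outside the 9 genes, 1 row per list with the number tested, points coloured by call and a black bar at the list median. The amyloid-beta degrading proteases have the lowest median, -1.71, and the other secretase substrates the highest, 1.32, while called genes lie on both sides of 0 in every list except gamma-secretase and its partners.

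The genes that load, remodel and take up lipoproteins were read in 2 lists, and no difference between these lists was tested. Of 10 tested apolipoprotein and lipoprotein assembly genes, 2 were higher in neurons, 5 higher in astrocytes and 3 did not pass, with a median of -1.21. Without the filter 18 were tested, most of the added ones dim in both cultures, and the median was -0.06. Abca1, the transporter that loads lipid onto apolipoprotein E, was 7.48-fold higher in astrocytes, at 835 and 781 in neurons against 6097 and 6145 in astrocytes. Pltp, the phospholipid transfer protein gene, was 11.6-fold higher in astrocytes, at 99 and 99 in neurons against 1233 and 1333 in astrocytes. Abcg4 and Abcg1, sterol exporters, were 2.94-fold and 2.17-fold higher in neurons, and the Abcg1 call ended without neuron array 1, without either astrocyte array and without the filter. The Abcg4 log2 fold change was 0.85 in place of 1.56 with its probe sets averaged, and that of Pltp -2.89 in place of -3.54 without probe sets that match several transcripts.

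Of 12 lipoprotein receptor genes tested, 5 were higher in neurons, 4 higher in astrocytes and 3 did not pass, with a median of -0.15. The number higher in neurons was 3 without either neuron array, the number higher in astrocytes was 2 without astrocyte array 1, and the median was 0.15 without probe sets that match several transcripts. Vldlr, a receptor for reelin and for apolipoprotein E, was 7.28-fold higher in neurons, at 773 and 873 against 102 and 102 in astrocytes, in all 5 of its probe sets. Mylip, a ligase that marks lipoprotein receptors for breakdown, was 3.46-fold higher in neurons, and without neuron array 2 its adjusted p was 0.051. Lrp2, the megalin gene, read 3 and 30 in neurons, where 1 of 2 arrays was above background, against 179 and 170 in astrocytes. Its log2 fold change on the offset scale was -2.86, with -2.14 without neuron array 1 and -3.59 without neuron array 2. Its call ended without either astrocyte array (adjusted p = 0.0626 and 0.0602), and an offset 4 times larger gave -1.79. Lrp4, a receptor that binds agrin in muscle, was 3.94-fold higher in astrocytes.

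Of 6 tested genes listed here as regulators of Apoe, 2 were higher in neurons, 1 higher in astrocytes and 3 did not pass, with a median of 0.26. Besides liver X and retinoid X receptor genes, this list held other transcription regulators such as Srebf1 and Ncoa1. Srebf1, a lipogenic transcription factor gene, was 2.21-fold higher in astrocytes, at 287 and 226 in neurons against 537 and 622 in astrocytes. Rxrb and Ncoa1 were 1.70-fold and 1.45-fold higher in neurons. Neither call held on removal of neuron array 1, of astrocyte array 1 or of astrocyte array 2, and that of Rxrb also ended without neuron array 2 and without the filter. Nr1h3, the liver X receptor alpha gene, named after its values were seen, read 44 and 14 in neurons against 51 and 57 in astrocytes. It did not pass (log2 fold change -0.78, limma adjusted p = 0.0876), but did so as higher in astrocytes with the replicate block (adjusted p = 0.0366) and without neuron array 1 (-1.33, adjusted p = 0.0244).

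Of 29 other secretase substrates tested, 19 were higher in neurons, 7 higher in astrocytes and 3 did not pass, with a median of 1.32. Sez6l2, a neuronal BACE1 substrate, was 39.4-fold higher in neurons, at 1101 and 962 against 20 and 9 in astrocytes, where 1 of 2 arrays was above background, and L1cam, an axonal adhesion molecule, was 34.9-fold higher in neurons, at 1955 and 1691 against 42 and 38 in astrocytes. Cd44, the hyaluronan receptor gene, was 11.3-fold higher in astrocytes, at 66 and 54 in neurons against 833 and 777 in astrocytes, and Jag1, a Notch ligand gene, was 6.92-fold higher in astrocytes. The log2 fold change of Sez6l2, 5.30, lay between 3.80 and 5.95 over the alternatives, that of L1cam was 4.38 in place of 5.13 with an offset 4 times larger, and that of Jag1 was -1.66 in place of -2.79 with its probe sets averaged.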

How the data were processed

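RNA of 4 cultures was labelled after amplified cDNA synthesis and read on 1 Affymetrix array each, per the labels' protocols. Each deposited value is the linear intensity of a probe set from MAS5, a tool named in the submitters' processing notes without a version. They are whole numbers with a trimmed mean of 149.997 to 150.002 on each array. Amplification reads the 3′ end of transcripts best, so probe sets of a gene can differ. The number of arrays limits the precision, with a median standard error of 0.20 over probe sets.

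Values were transformed to log2(value + 12.5) and probe sets kept where at least 2 arrays were at or above the array median. Of 45037 probe sets, 34945 had 1 symbol, 932 several and 9160 none, and none was named from several. Symbols were updated through the gene table for 34741. Groups were compared with limma 3.58.1 (two-sided, lmFit and a trended eBayes) in R 4.3.3, with Benjamini-Hochberg adjustment at 0.05, 2 residual and 6.27 prior degrees of freedom. The brightest kept probe set read each gene. Second probe sets were compared by the same fit on per-array differences. Background is the highest of 27 Bacillus subtilis control probe sets, which was 21 and 23 in neurons against 17 and 15 in astrocytes; folds given as at least compare with it, without the offset. Correlations of log2 values across probe sets, which are not independent replicates, were 0.98 between neuron arrays, 0.983 between astrocyte arrays and 0.669 to 0.682 between groups. The fits were tested on simulated data.

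The 9 genes and the gene lists were chosen with earlier results of these data known, so they are no independent support. All 9 genes are named, from each list, for each direction, the 2 called genes that changed most, the 3 genes most like Aplp1 and Clu, and 8 markers; others are marked. Alternatives changed the offset, filter, normalization, variance trend, probe set choice, replicate block and each array in turn. Promoter windows of RefSeq on GRCm38.p6 were searched on both strands for the GC box (GGGCGG), the CCAAT box (CCAAT), the TATA box (TATAAA, in 12.4% of all windows), the AP-1 site (TGANTCA, in 6.75%), the E-box (CACGTG, in 6.02%), the cAMP response element (TGACGTCA, in 1.55%) and the NFI half-site (TTGGCA, in 12.3%). None of the last 5 was in the 4 windows shown. Of the Apoe windows not shown, the middle one held 2 TATA box matches and the most downstream one held 1 NFI half-site.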

Additional observations from a re-analysis of the deposited data

How the results depend on the processing

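Aplp1, Apoe and Clu kept their direction and their call under all 13 alternatives, between 3.15 and 4.54, between -0.96 and -0.75, and between -3.21 and -2.52 as log2 fold changes of neurons minus astrocytes. Neither App nor Ncstn was called under any alternative. App turned to -0.04 under quantile normalization, and its probe set 1420621_a_at to 0.03. Aplp2 lost its call with no filter (-0.55, adjusted p = 0.111), with no mean-variance trend (-0.55, adjusted p = 0.0758) and with probe sets averaged (-0.38, adjusted p = 0.0539). Adam10 gained a call with probe sets averaged (-0.65). Psen2 gained one with an offset 4 times larger (-0.37), a filter at the 75th percentile (-0.46), quantile normalization (-0.51) and probe sets averaged (-0.46). In that last fit the Psen2 value came from its 1 tested probe set, so nothing was averaged for this gene. Leaving out 1 array at a time gave ranges of -0.81 to -0.28 for Aplp2, -0.29 to 0.07 for Adam10, 0.46 to 0.74 for Bace1 and -0.14 to 0.03 for Ncstn. It gave -0.06 to 0.04 for App probe set 1420621_a_at, -0.29 to 0.21 for Aplp2 probe set 1432344_a_at and -0.20 to 0.98 for Bace1 probe set 1421825_at. Of the 9 genes, 1 to 2 were then higher in neurons, 1 where neuron array 1, neuron array 2 or astrocyte array 2 was left out and 2 in the other case. The cause of these moves was not tested, except that leaving out an array leaves its group with 1, which is assumed to vary like the other group. Ncstn did not pass the filter at the 75th percentile and has no value there, and its signal near background limits what can be read.

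The replicate numbers of the groups are shared names. The correlation of deviations from the group means between arrays of the same number was -0.0901 over the 2 pairs. With the replicate block, the calls of the 9 genes were as without it, and the number of called differences between probe sets of a gene was 1, against 0 without it. That number was also 1 with an offset 4 times larger and ranged from 0 to 1 with an array left out. Over all genes, 3677 were called higher in neurons and 3727 higher in astrocytes with the block, against 3737 and 3749 without it. The counts of called genes over all 115 pathway genes moved by less than 1.5 times under every alternative. Counts of single lists moved by more. In the main fit 5 lipoprotein receptors and 2 regulators of Apoe were higher in neurons, and both counts fell whichever array was left out. The regulators higher in astrocytes numbered 2 with the replicate block. The amyloid-beta degrading proteases and the lipoprotein assembly genes higher in neurons numbered 1 in place of 2 under several alternatives.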

Other observations

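Some pathway genes outside the naming rule were chosen here after their values were seen. Among the partners of the reelin route, Lrp8, the second reelin receptor, read 441 and 506 in neurons against 152 and 138 in astrocytes (limma log2 fold change 1.62, adjusted p = 3.06e-05), and Dab1, the adaptor that binds its tail and that of APP, read 560 and 613 in neurons against 198 and 199 in astrocytes (2.84-fold higher in neurons, limma adjusted p = 2.63e-05). Both thus moved as Vldlr did, higher in neurons. Lrp1, a large receptor that takes up apolipoprotein E, did not pass, at 443 and 339 in neurons against 465 and 496 in astrocytes (limma adjusted p = 0.138).

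The genes of the BRI family, whose products bind APP, were all higher in astrocytes, as were 31.1% of all genes tested. Itm2b read 3785 and 3740 in neurons against 8379 and 9255 in astrocytes (limma adjusted p = 1.4e-05), and Itm2c read 1415 and 1146 in neurons against 3638 and 4172 in astrocytes (limma adjusted p = 1.67e-05). Itm2a read 187 and 220 in neurons against 437 and 451 in astrocytes (limma adjusted p = 0.000293). Adam9 and Adam17, further metalloproteases that can cut APP, were 3.84-fold and 2.13-fold higher in astrocytes (limma adjusted p = 2.21e-06 and 0.00264), and the Adam17 call ended without neuron array 1 or astrocyte array 2. Of the Notch ligand genes measured, Dll1 and Dll3 were 2.14-fold and 3.88-fold higher in neurons (limma adjusted p = 0.00184 and 6.94e-05), and Jag1 was higher in astrocytes. Jag2 did not pass by its brightest probe set (limma adjusted p = 0.241). Of its 2 tested probe sets, 1 passed as higher in neurons, and their average gave a log2 fold change of 1.17 (limma adjusted p = 0.00254).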
